A study of Mus musculus with 6 samples.

Results

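The genes described here are 10 interferon-induced antiviral effectors: Ifit1, Ifit2, Ifit3, Mx1, Mx2, Rsad2, Cmpk2, Ifitm2, Ifitm3 and Bst2. They were chosen by gene symbol from the 20336 genes of the count table, and all 10 were present in it. All 10 also passed the filter on low counts, which kept 12786 genes. RNA was sequenced from sorted large peritoneal macrophages of mice given E. coli in the peritoneum for 30 min. The group with the channel deleted (PAC knockout, 3 libraries) has the genotype label Cxcr3-PAC-/-, and the group it was set against (floxed control, 3 libraries) has the label PAC F/F. The design text names Cx3cr1 in place of Cxcr3 for the same knockout, and names no driver for the control. Both groups were infected, and uninfected mice were not analysed here. The labels give neither strain nor age.

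Interferon binding to its receptor activates transcription factors that bind interferon response elements in the promoters of such effector genes. In macrophages, Toll-like receptor 4 can start the same programme after contact with bacterial lipopolysaccharide, through interferon beta. The IFIT proteins bind foreign RNA, the MX proteins are dynamin-like GTPases that trap viral nucleocapsids, and the IFITM proteins are membrane proteins that hinder viral entry through endosomes. Rsad2 encodes viperin, which makes a nucleotide analogue that stops viral RNA synthesis. Cmpk2 encodes a mitochondrial nucleotide kinase, and Bst2 encodes tetherin, which holds budding virus at the cell surface. Many laboratory mouse strains carry disabling mutations in Mx1 and Mx2, and the table lists Mx2 as a polymorphic pseudogene.

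The total was 15981530 to 18091680 counts in knockout libraries and 16294342 to 20648832 in control libraries. The targeted gene, listed as Tmem206, had 4.27, 6.13 and 5.49 CPM (counts relative to the TMM-scaled library total) in knockout libraries and 6.33, 12.2 and 8.16 CPM in control libraries. Its groups did not overlap, with a log2 fold change of -0.75 (SE 0.31, edgeR adjusted p = 0.997). Tmem206 was therefore still counted in every knockout library, and the share of cells that carry the deletion cannot be told from these values. All 10 listed markers of large peritoneal macrophages, such as Gata6 and Timd4, were detected in every library. Whether every library stems from a different mouse is not stated, so the p-values rest on a spread between libraries that may be technical.

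Most of the effector genes lie in small clusters. On GRCm38, Ifit2 (chromosome 19, 34550694 to 34576419, plus strand), Ifit3 (34583531 to 34588731, plus strand) and Ifit1 (34640871 to 34650009, plus strand) lie in the order given. Between Ifit3 and Ifit1 lie their relatives Ifit1bl1, Ifit3b and Ifit1bl2. Rsad2 (chromosome 12, 26442746 to 26456452, minus strand) and Cmpk2 (26469204 to 26479837, plus strand) point away from each other across 12751 bases. Mx1 (chromosome 16, 97447035 to 97462907, minus strand) and Mx2 (97535308 to 97560900, plus strand) also point away from each other. Ifitm2 (chromosome 7, 140954837 to 140955987, minus strand) and Ifitm3 (141009586 to 141010770, minus strand) lie on the same strand with Ifitm1 between them. Bst2 is on chromosome 8 (71534255 to 71537456, minus strand).

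RefSeq promoter windows on GRCm38.p6, from 250 bases before to 50 after the transcription start, were found by symbol for 8 of the 10 genes, in 9 windows. The interferon response element was searched as GAAANNGAAA on both strands, and overlapping matches were each counted. Of the 8 genes, 6 held a match: Ifit1, Ifit3, Rsad2, Ifitm2, Ifitm3 and Bst2. Over all 32851 windows, 3.44% held a match. Windows with 2 or more matches made up 0.225% of all windows, and Ifit1, Ifit3, Ifitm3 and Bst2 were among them. Both windows of Ifit2 and that of Cmpk2 held none of these letters. The palindrome TTCNNNGAA was present in 8.30% of all windows and in those of Ifit2, Ifitm3 and Bst2. In Ifitm3 and Bst2 it overlapped a response element match. Genes of this kind are known for the element, so these matches describe the promoters and are not evidence of binding in these cells.

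The stretches that hold the matches are shown for 4 members whose 70-base stretch overlaps no annotated exon, since spacing and orientation differ between them. Each is 70 bases of the gene's own strand, 5′ to 3′, and capitals mark the response element matches.
Ifit1 (chr19:34640764-34640833, plus strand): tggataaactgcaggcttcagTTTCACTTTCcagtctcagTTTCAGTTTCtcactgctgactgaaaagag
Ifit3 (chr19:34583360-34583429, plus strand): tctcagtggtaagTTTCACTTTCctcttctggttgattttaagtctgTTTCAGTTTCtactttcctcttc
Rsad2 (chr12:26456533-26456602, minus strand): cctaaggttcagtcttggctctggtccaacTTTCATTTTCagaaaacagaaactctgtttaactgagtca
Bst2 (chr8:71537560-71537629, minus strand): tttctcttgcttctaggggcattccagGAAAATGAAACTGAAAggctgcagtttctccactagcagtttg

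Counted from the RefSeq start, the matches of Ifit1 lie at positions -104 to -95 and -85 to -76, and those of Ifit3 at -156 to -147 and -122 to -113. The Rsad2 match lies at -120 to -111. The match of Ifitm2, whose stretch is not shown, lies at -46 to -37, and those of Ifitm3 lie after the start, at 2 to 11 and 19 to 28. In Bst2 the matches at -130 to -121 and -124 to -115 overlap each other and have the reverse orientation of the other members shown. The Ifit1 stretch lies in the 127 bases between Ifit1 and Ifit1bl2, which point away from each other, so its matches are also those of Ifit1bl2. The stretch of Ifit3 is identical to that of Ifit3b at 70 of 70 bases.

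**Figure D1:**
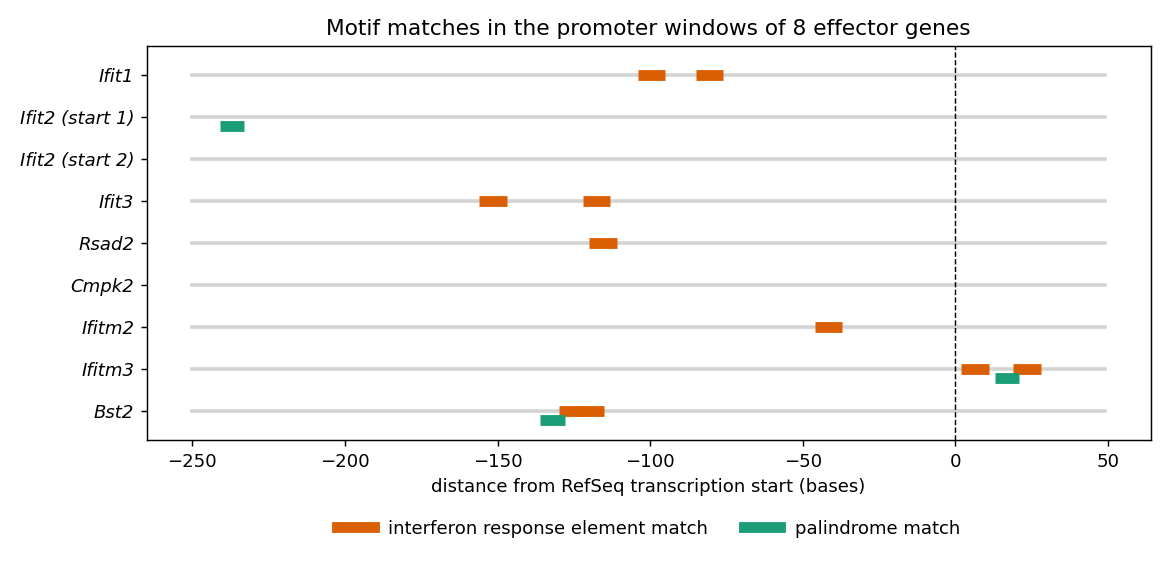
Motif matches in the promoter windows of the 8 effector genes with a RefSeq window, drawn as distance in bases from the transcription start (dashed line); orange bars are interferon response element matches and green bars palindrome matches. Matches of Ifit1, Ifit3, Rsad2 and Bst2 fall between -156 and -76, and those of Ifitm3 lie after the start.

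The 10 genes differed widely in level. On the authors' FPKM scale, which divides by gene length, Ifitm3 averaged 875 ± 140 FPKM in the knockout and 748 ± 36.6 FPKM in the control (SD, n = 3 each). Ifitm2 averaged 272 ± 4.54 FPKM in the knockout and 302 ± 52.3 FPKM in the control (SD, n = 3 each). Bst2 averaged 72.3 ± 14.2 FPKM in the knockout and 56.3 ± 7.17 FPKM in the control (SD, n = 3 each). In all 6 libraries the order Ifitm3, Ifitm2, Bst2 held, with no overlap between the libraries of neighbouring genes in either group.

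The other 7 genes stood far lower, at means of 0.417 (Ifit2) to 5.08 FPKM (Ifit1) in the knockout and 0.163 (Ifit2) to 2.87 FPKM (Ifit1) in the control. By knockout mean, their order was Ifit1, Cmpk2, Rsad2, Mx1, Mx2, Ifit3 and Ifit2. Every neighbouring pair in this order overlapped between libraries within the knockout. Within single libraries, Mx1 lay above Mx2 in 6 of 6. Ifit1 lay above Cmpk2, Cmpk2 above Rsad2 and Ifit3 above Ifit2 in 5 of 6 each, Mx2 above Ifit3 in 4 and Rsad2 above Mx1 in 2. Within the control, only the pair Cmpk2 and Rsad2 did not overlap among these neighbours. Ifitm2 and Ifitm3 together held 84.3% to 88.3% of the counts of the 10 genes in knockout libraries and 87.9% to 89.7% in control libraries.

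The comparison of knockout with control asks whether infected macrophages of the PAC knockout group differ from those of the floxed control in these transcripts. Of the 10 genes, 9 had higher fitted values in the knockout and 1, Ifitm2, had a lower one, with a median log2 fold change of 0.57. Over all genes tested, 48.8% had a higher fitted value and the median was -0.0079. No effector gene passed edgeR's quasi-likelihood test with Benjamini-Hochberg adjustment over all 12786 genes, of which 0 passed in either direction (0% higher, 0% lower). At an unadjusted p under 0.05 there were 2 effector genes (Ifit1 and Cmpk2) and 534 genes in all. DESeq2 called 0 of the 10, with 3 at an unadjusted p under 0.05, and 22 of all genes (0.086% higher, 0.086% lower), with 582 at an unadjusted p under 0.05. Limma-voom called 0 of the 10, with 2 at an unadjusted p under 0.05, and 0 of all genes (0% higher, 0% lower), with 556 at an unadjusted p under 0.05. The groups did not overlap for 2 of the 10, both higher in the knockout, beside 4.47% of all genes higher and 4.86% lower without overlap.

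**Figure D2:**
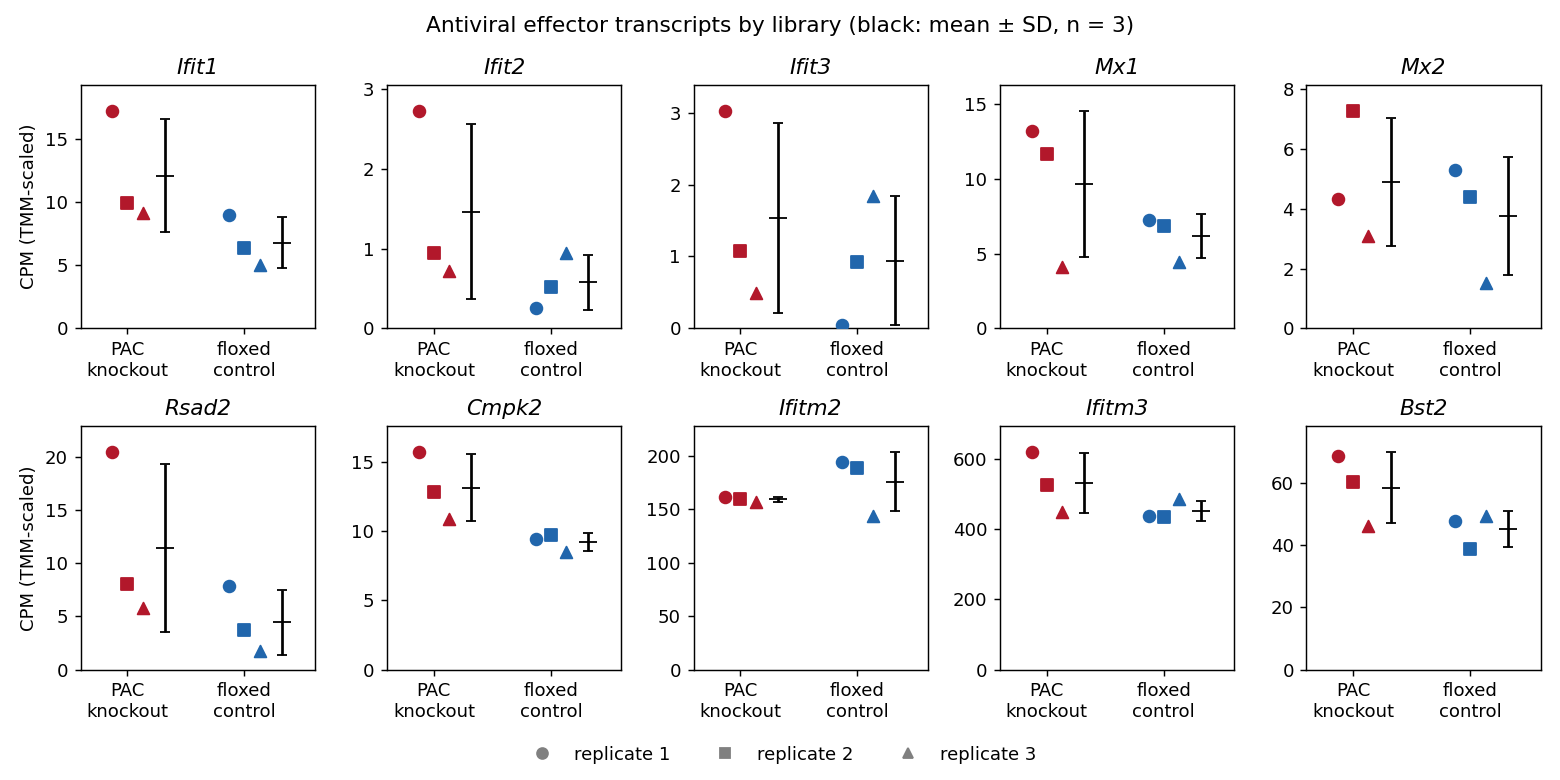
CPM (TMM-scaled) of each effector gene in the 3 PAC knockout libraries (red, left) and the 3 floxed control libraries (blue, right), with symbols for replicate numbers and black bars for the mean ± SD. Ifit1 and Cmpk2 are the genes whose groups do not overlap, and knockout replicate 1 is the highest library for 8 of the 10 genes.

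Transcripts of other peritoneal cells also differed between libraries. In bulk RNA, fewer cells of a type and less RNA per cell cannot be told apart. The summed level of 8 small peritoneal macrophage and monocyte markers was 130 to 608 CPM in knockout libraries and 641 to 1184 CPM in control libraries, without overlap. Most of that sum was Retnla, with 220, 94.8 and 541 CPM in knockout libraries and 539, 1005 and 594 CPM in control libraries, which overlapped. All 7 tested markers of this list had lower fitted values in the knockout, while 48.8% of all genes tested had higher ones. The groups did not overlap for 3 of the 7 (Ccr2, Cd226 and Fcrls), beside 4.86% of all genes lower without overlap. Ccr2 had 20.5, 17.1 and 34.6 CPM in knockout libraries and 61.4, 122 and 54.4 CPM in control libraries. Its log2 fold change was -1.72 (SE 0.40, edgeR adjusted p = 0.997). The 7 neutrophil markers summed to 5.21 to 14.7 CPM in knockout libraries and 1.53 to 4.79 CPM in control libraries, also without overlap. S100a8, the only 1 of them with enough counts to test, held most of the sum in the libraries nearest each other. It had 4.71 of the 5.21 CPM in knockout replicate 3 and 3.29 of the 4.79 CPM in control replicate 1. Ly6g had 0 counts in 5 of the 6 libraries. The 8 mast cell and eosinophil markers in the table summed to 140 to 250 CPM in knockout libraries and 57.6 to 147 CPM in control libraries. Most of that sum was Hdc, and the other 7 markers summed to 34.1, 10.4 and 2.16 CPM in knockout libraries and 3.66, 5.33 and 7.48 CPM in control libraries, which overlapped. The 9 T and NK cell markers summed to 3.10 to 5.63 CPM in knockout libraries and 1.37 to 4.29 CPM in control libraries. Knockout replicate 1 was highest for mast cell and T and NK cell markers. The 9 B cell markers summed to 64.6 to 281 CPM in knockout libraries and 42.5 to 485 CPM in control libraries. The part of these cells in the effector values was not tested. Bst2 also marks plasmacytoid dendritic cells. Of 7 other markers of those cells, 6 were in the table and 2 had counts in every library, with a sum of 51.9 to 60.0 CPM in knockout libraries and 49.0 to 71.8 CPM in control libraries. Most of it was Tcf4 (52.3 CPM on average in the knockout and 54.3 CPM in the control). Ly6d reached 7.53 CPM in knockout replicate 1 and 11.9 CPM in control replicate 2. The defining marker Siglech had 3 counts in control replicate 2 and 0 in the other 5 libraries.

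Among the IFIT genes, Ifit1 showed the clearest separation. Ifit1, which recognises foreign RNA by its cap structure, had 17.2, 9.93 and 9.09 CPM in knockout libraries (given by replicate number here and below) and 8.96, 6.32 and 5.0 CPM in control libraries. Every knockout library lay above every control library, though the lowest knockout and the highest control value were close. The log2 fold change was 0.84 (SE 0.32, 95% interval 0.13 to 1.54), at an unadjusted p of 0.0245 and an edgeR adjusted p of 0.997. Without knockout replicate 1 it was 0.49.

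Ifit2, an RNA-binding relative, had 46, 15 and 13 counts in knockout libraries, against 5, 9 and 18 counts in control libraries. That is 2.73, 0.95 and 0.72 CPM in knockout libraries and 0.26, 0.52 and 0.95 CPM in control libraries, and the groups overlapped. The highest count was in knockout replicate 1, with a 95% exact Poisson interval of 33.7 to 61.4 counts, which covers counting error only. The log2 fold change was 1.34 (SE 0.81, edgeR adjusted p = 0.997), and 0.53 without knockout replicate 1.

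Ifit3, whose human counterpart binds and stabilises IFIT1, had 51, 17 and 9 counts in knockout libraries and 1, 16 and 35 counts in control libraries. The groups overlapped, and the libraries within each genotype were far apart. The 95% exact Poisson interval was 38.0 to 67.1 counts in knockout replicate 1 and 0.0253 to 5.57 counts in control replicate 1, and these intervals cover counting error only. Its log2 fold change of 0.70 (SE 1.00, edgeR adjusted p = 0.997) turned to -0.26 without knockout replicate 1. Of the distinct 50-base words in Ifit3 transcripts, 51.2% also occur in Ifit3b, so the level of Ifit3 depends on how shared reads were counted, which the sources used here leave unstated. Ifit3b itself had 4, 2 and 0 counts in knockout libraries and 0, 3 and 0 counts in control libraries.

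The Rsad2 and Cmpk2 neighbours were both higher in knockout replicate 1 than in any other library. Rsad2 had 20.5, 8.03 and 5.76 CPM in knockout libraries and 7.82, 3.77 and 1.79 CPM in control libraries. Control replicate 1 reached into the knockout range, so the groups overlapped. The log2 fold change was 1.35 (SE 0.64, 95% interval -0.14 to 2.84; edgeR adjusted p = 0.997), the largest fitted value among the 10. It was 0.63 without knockout replicate 1 and 2.04 without control replicate 1.

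Cmpk2 had 15.7, 12.8 and 10.9 CPM in knockout libraries and 9.47, 9.74 and 8.53 CPM in control libraries. All 3 knockout libraries lay above all 3 control libraries, and the control libraries were close together. Its log2 fold change was 0.51 (SE 0.22, 95% interval 0.013 to 1.00, unadjusted p = 0.0451, edgeR adjusted p = 0.997), with a range of 0.36 to 0.63 when any 1 library was left out. In FPKM, the ratio of Rsad2 to Cmpk2 was 1.25, 0.60 and 0.51 in knockout libraries and 0.79, 0.37 and 0.20 in control libraries, so the relative level of these neighbours varied within each genotype.

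The MX genes differed by less than their spread between libraries. Mx1 had 13.2, 11.7 and 4.10 CPM in knockout libraries and 7.26, 6.84 and 4.48 CPM in control libraries, with knockout replicate 3 the lowest of all 6. Mx2 had 4.33, 7.27 and 3.10 CPM in knockout libraries and 5.30, 4.41 and 1.53 CPM in control libraries. The groups overlapped for both genes. The log2 fold change was 0.64 for Mx1 (SE 0.41) and 0.39 for Mx2 (SE 0.49), and neither passed (edgeR adjusted p = 0.997 each). That of Mx1 was 0.35 without knockout replicate 1 and 1.01 without knockout replicate 3. That of Mx2 was -0.012 without knockout replicate 2 and 0.73 without control replicate 1.

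The abundant membrane effectors had small fitted differences. Ifitm3 had 618, 525 and 448 CPM in knockout libraries and 437, 433 and 485 CPM in control libraries, a log2 fold change of 0.23 (SE 0.14, 95% interval -0.088 to 0.55). Its groups overlapped through control replicate 3, which lay above knockout replicate 3. Bst2 had 68.7, 60.3 and 46.1 CPM in knockout libraries and 47.7, 38.7 and 49.4 CPM in control libraries, a log2 fold change of 0.37 (SE 0.17, 95% interval -0.0059 to 0.74). Here too knockout replicate 3 lay within the control range. Without knockout replicate 1 the log2 fold change was 0.11 for Ifitm3 and 0.23 for Bst2.

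Ifitm2 had 162, 160 and 157 CPM in knockout libraries and 194, 189 and 144 CPM in control libraries, a log2 fold change of -0.14 (SE 0.14, 95% interval -0.45 to 0.17). The knockout libraries were nearly alike and lay inside the control range, and the fitted value stayed below 0 without any 1 library (-0.26 to -0.061). None of Ifitm3, Bst2 and Ifitm2 passed (edgeR adjusted p = 0.997 each). Of the exon bases of Ifitm2, 40.9% are also annotated to Gm45717 on the same strand, which had 11 counts in control replicate 1 and 0 in the other libraries. The FPKM ratio of Ifitm3 to Ifitm2 was 3.69, 3.18 and 2.76 in knockout libraries and 2.17, 2.22 and 3.25 in control libraries, and these overlapped.

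**Figure D3:**
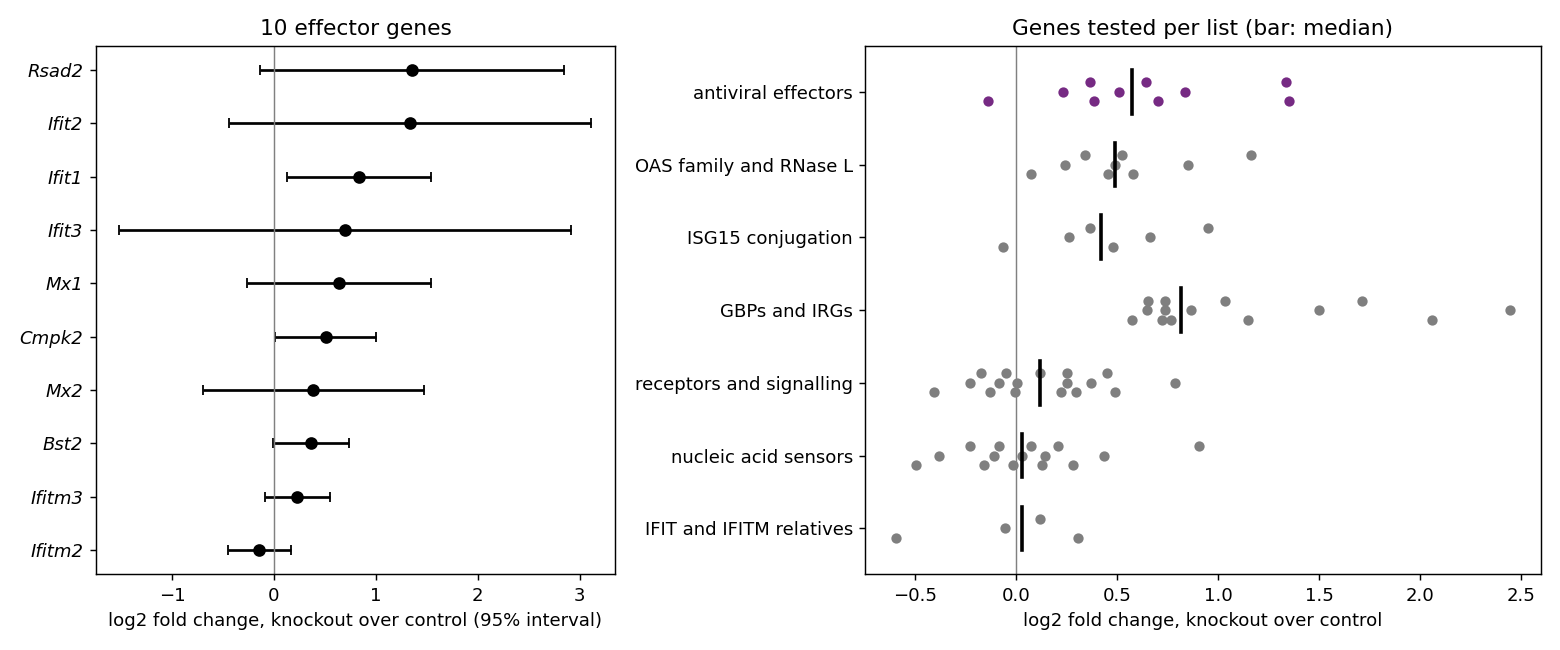
Left, log2 fold change of each effector gene, knockout over control, with its 95% interval from the edgeR fit; right, the same value for every tested gene of the effectors and of 6 related lists, with black bars for medians. The intervals of Ifit1 and Cmpk2 lie above 0, no gene shown passed after adjustment, and the effector median of 0.57 lies between those of the OAS family (0.49) and of the guanylate-binding proteins (0.82).

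Within the knockout, the effector genes were ordered by library. Knockout replicate 1 was the highest of the 6 libraries for 8 of the 10 genes, while 15.8% of all tested genes had their highest value there. Averaged over the 10 genes, the log2 CPM centred on each gene's mean came to 0.83 in knockout replicate 1, 0.32 in knockout replicate 2 and -0.23 in knockout replicate 3. In control libraries it lay between -0.39 and -0.20. Of the 10 genes, 9 lay above their own mean in knockout replicate 1, 9 in replicate 2 and 1 in replicate 3. In control replicates 1, 2 and 3 the number was 5, 3 and 2. Of all genes tested, 51.7%, 52.2% and 51.8% lay above their own mean in knockout replicates 1, 2 and 3, and 50.3%, 51.3% and 53.6% in control replicates 1, 2 and 3. Knockout replicate 3 lay within the range of the control libraries for 7 of the 10 genes, and so did 51.1% of all genes tested. In knockout replicates 1 and 2 the number was 2 of the 10 genes each, beside 50.7% and 54.4% of all genes.

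**Figure D4:**
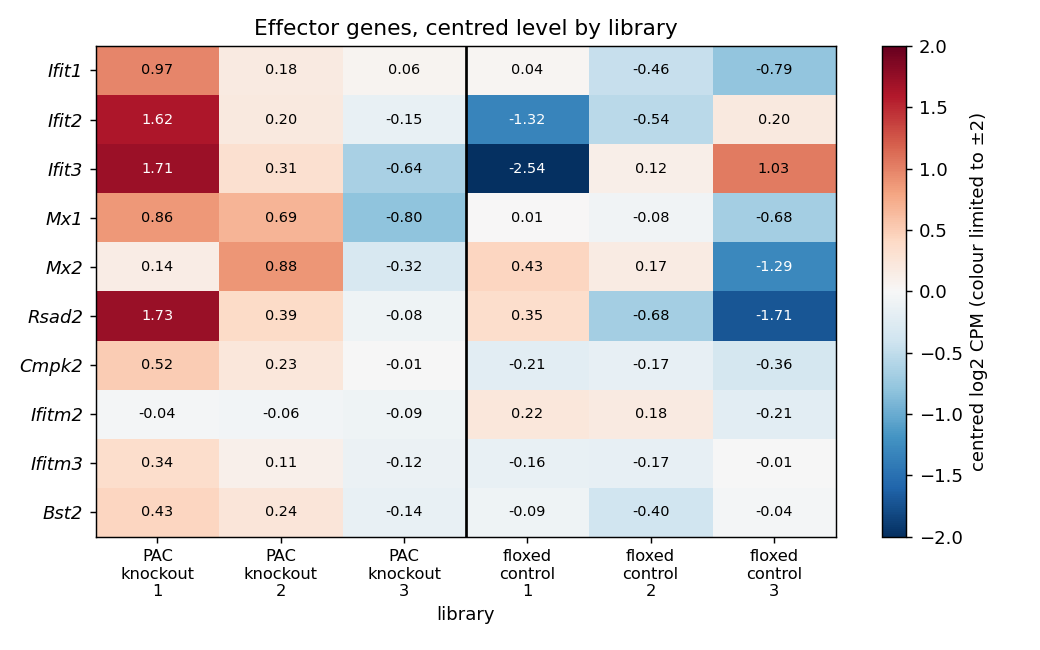
Log2 CPM of each effector gene minus that gene's mean over the 6 libraries, PAC knockout libraries left of the black line and floxed control libraries right of it. Knockout replicate 1 lies above the gene's mean for 9 of the 10 genes and is the highest library for 8, and Ifitm2 is nearly flat. Ifit2 and Ifit3 are lowest in control replicate 1, while Rsad2, Ifit1, Mx2 and Cmpk2 are lowest in control replicate 3.

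The controls did not share this order between genes. Control replicate 3 was lowest for 5 genes (Ifit1, Mx2, Rsad2, Cmpk2 and Ifitm2), and 13.8% of all genes tested had their lowest value there. Ifit2, Ifit3, Ifitm3 and Bst2 had their highest control value in control replicate 3. Over the 6 libraries, Ifit1 and Rsad2 had the highest correlation of the 45 gene pairs (Pearson r = 0.98), followed by Ifitm3 and Bst2 (r = 0.94) and by Ifit1 and Cmpk2 (r = 0.92). Ifitm2 had negative values with Ifitm3 (r = -0.45), Bst2 (r = -0.43), Ifit2 (r = -0.62) and Ifit3 (r = -0.64). Against the mean of the other 9 genes, r ran from -0.19 for Ifitm2 to 0.96 for Cmpk2. These values describe 6 libraries that share a genotype split and knockout replicate 1, and they are given without a test.

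The fitted values moved with single libraries. Without knockout replicate 1 the median log2 fold change of the 10 genes was 0.36, with 8 of 10 above 0, and without knockout replicate 3 it was 0.82. The number of effector genes whose groups did not overlap became 7 without knockout replicate 3, all higher, where 10.4% of all genes were higher without overlap. Without control replicate 3 it was 5, of which Ifitm2 was lower, where 12.6% of all genes were higher and 12.1% lower. No effector gene was called without any 1 library.

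**Figure D5:**
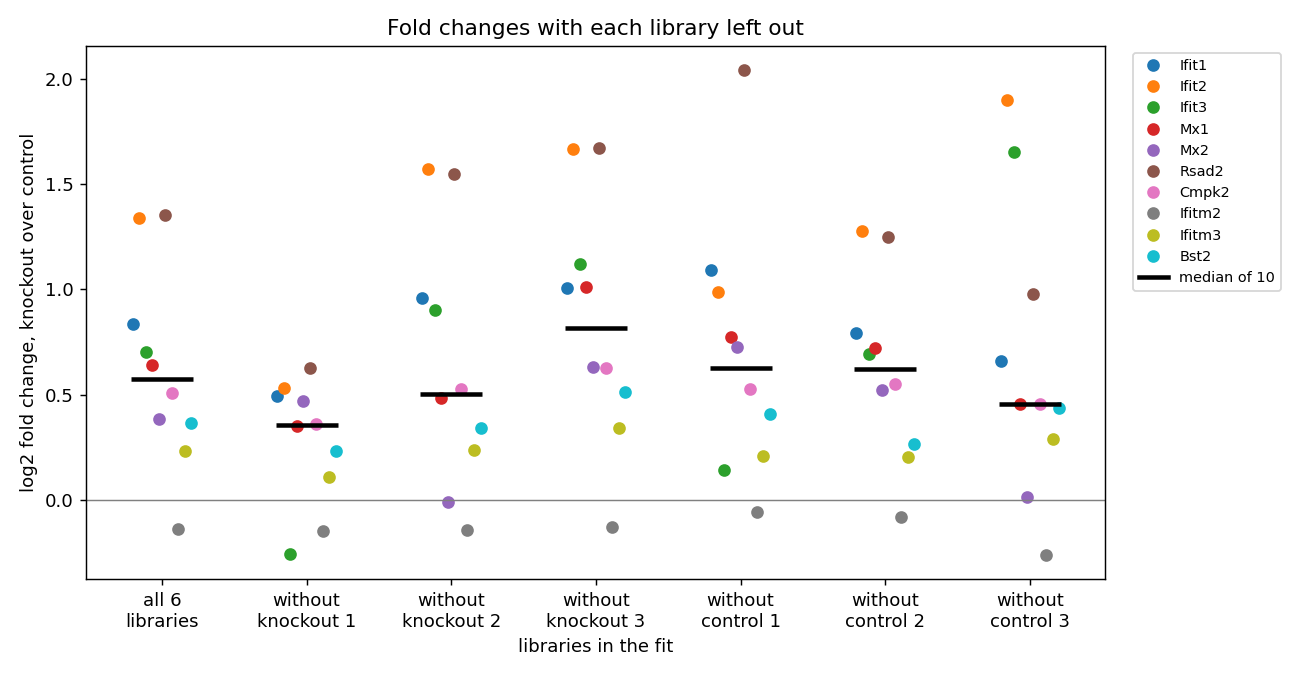
Log2 fold change, knockout over control, of each effector gene (coloured points) and their median (black bar) with all 6 libraries and with each library left out. Leaving out knockout replicate 1 gives the lowest median (0.36) and leaving out knockout replicate 3 the highest (0.82), Ifitm2 stays below 0, and Ifit3 and Mx2 each fall below 0 in 1 setting.

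Of the close relatives, 4 of 8 had enough counts to test, and none passed. Ifitm6 had a log2 fold change of -0.055 (SE 0.15), Ifitm1 0.30 (SE 0.34), Ifitm10 0.12 (SE 0.47) and Ifitm5 -0.60 (SE 0.52). Ifitm6 had 87.9 CPM on average in knockout libraries and 91.3 CPM in control libraries. Ifit1bl1, Ifit1bl2, Ifit3b and Ifitm7 had at most 15 counts in any library.

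Transcripts of the interferons themselves were few. Of 10 interferon genes looked for by symbol, 4 were listed in the table, and only Ifnb1, which encodes interferon beta, was tested. Ifnb1 had 56, 24 and 17 counts in knockout libraries and 23, 20 and 13 counts in control libraries, a log2 fold change of 0.93 (SE 0.65, edgeR adjusted p = 0.997). Knockout replicate 1 was again the highest library, and the groups overlapped. Ifna4 had 7 counts in knockout replicate 1, Ifng had 5 in knockout replicate 3 and Ifna2 had 15 in control replicate 1, each with 0 counts elsewhere.

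The other interferon pathway genes, 61 tested from 62 listed, had 46 higher and 15 lower fitted values. Their median log2 fold change was 0.34, and 0 passed the edgeR test. At an unadjusted p under 0.05 there were 20, beside 534 of all 12786 genes tested. The groups did not overlap for 10 higher and 1 lower, beside 4.47% of all genes higher and 4.86% lower. Limma-voom called 0 of the pathway genes. DESeq2 called 1, Iigp1, which was higher in the knockout, beside 0.086% of all genes called higher and 0.086% called lower. Of 17 receptor and signalling genes, 10 had higher and 7 lower fitted values (median 0.12), and Irf7, a transcription factor that amplifies interferon production, stood at 0.45 (SE 0.19). Of 15 nucleic acid sensors, 8 were higher and 7 lower (median 0.030), with Zbp1 at 0.91 (SE 0.29). All 9 genes of the OAS family and RNase L had higher fitted values (median 0.49), as did all 14 tested guanylate-binding proteins and immunity-related GTPases (median 0.82). The 6 genes of ISG15 conjugation had a median of 0.42, with 5 higher. None of these members passed the edgeR test, and no difference between lists was tested.

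The 5 genes most like the effectors were found by correlating each of 9953 other protein-coding genes with the mean centred log2 CPM of the 10. They were Trim30d, Dhx58, Trim25, Trim30a and Oasl2, with Pearson r of 0.98 to 0.99 over 6 libraries. Picking the highest of 9953 values over 6 libraries gives high r in any case, so these values are a description only. Trim25, a ubiquitin ligase, had 377, 287 and 204 CPM in knockout libraries and 175, 210 and 162 CPM in control libraries, with knockout replicate 1 the highest and replicate 3 the lowest of the knockout libraries. Dhx58, Trim25 and Oasl2 are also in the pathway lists above.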

How the data were processed

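PolyA RNA from 6 sorted macrophage libraries was grouped by title and genotype label. The submitters' processing notes name HISAT2 2.0.5, mm10 and featureCounts 1.5.0-p3. The sources used here do not state the annotation, the strand setting or how reads shared between genes were counted. Raw counts as deposited entered the tests. FPKM, which the authors derived from counts and gene lengths per the labels, served only to compare levels between genes. The deposited normalised signal (counts over a size factor) was not used. Nor were the log2 fold change and p-value columns, which hold the authors' own comparison in their deposited table.

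After edgeR's default expression filter and TMM scaling, the knockout was compared with the control by the robust quasi-likelihood test of edgeR 4.0.16 (R 4.3.3). Genotype was the sole term, and p-values were adjusted over all genes by Benjamini-Hochberg at 0.05. The SE was taken from the F statistic, and log2 CPM used a prior count of 2. The fit was tested on simulated data, with changes larger than any fitted here for the effector genes. The changed genes were higher in level than Ifit2 and Ifit3. The simulation therefore does not measure the power to find the effector differences. The 3 counts that a gene with 0 counts still allows amount to 0.154 to 0.190 CPM. No pair of libraries was within sampling noise (chi-square per gene of at least 25.3). Across genotypes the values ran from 25.3 (knockout replicate 3 and control replicate 3) to 68.7 (knockout replicate 3 and control replicate 1). Within a genotype they ran from 32.0 (knockout replicates 1 and 2) to 61.0 (control replicates 1 and 3), so the closest 2 libraries differed in genotype.

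The members and lists were chosen with earlier results of these data known. Named genes are the members, the targeted gene, relatives, interferon ligands, genes of other lists by smallest p (not all printed, and 1 is not reported here) and the 5 most correlated genes. Alternatives were other scaling, filters, DESeq2 1.42.0, limma-voom 3.58.1, a replicate block, a threshold of 0.1 and each library left out.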

Additional observations from a re-analysis of the deposited data

How the results depend on the processing

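Of 129 effector gene values recomputed under the alternatives, 127 kept their direction and stayed uncalled, and 2 turned: Ifit3 at -0.26 without PAC knockout replicate 1 and Mx2 at -0.012 without PAC knockout replicate 2. The number of effector genes called was 0 in every alternative run. The strict filter tested 9 of the 10 genes. Over all genes, edgeR called 0 with the filter, 38 with no filter, and DESeq2 called 22; among other interferon pathway genes edgeR called 3 with no filter (among them Gbp9 and Trim25), and DESeq2 called 1. With each library left out, Ifit3 ran from -0.26 to 1.65 and Mx2 from -0.012 to 0.73. In these fits 0 to 18 genes were called (18 without floxed control replicate 3, 5 without PAC knockout replicate 1 and 2 without floxed control replicate 1). In them 2 to 7 effector genes had groups that did not overlap, beside 8.01% to 12.6% of all genes higher and 8.07% to 12.1% lower. The cause was not tested. With the replicate block, 0 genes were called and the median of the 10 was 0.51. Same-numbered libraries had correlated deviations of -0.048, -0.061 and 0.085 for replicates 1, 2 and 3, so the numbers were not taken as pairs. Differently numbered libraries of the 2 genotypes had values of -0.051 to 0.107. The highest were knockout replicate 2 with control replicate 1 (0.107) and knockout replicate 1 with control replicate 2 (0.095). Together with the replicate 3 libraries of both genotypes (0.085), these would form a complete pairing. It was not tested, nor was any other besides the replicate block. No effector gene could be tested on more than 3 libraries per group, and the low counts of Ifit2 and Ifit3 limit what their values can show.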
